A study of Capra aegagrus with 10 samples.

Results

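The miRNAs described here are the miR-200 family (miR-200a, miR-200b, miR-200c, miR-141 and miR-429), the miR-183 cluster (miR-183, miR-96 and miR-182), miR-203 and miR-205, which are used as marks of epithelial cells. They were taken by name from a small RNA table of goat mammary gland cells. Of the 10 names, 8 have a row in the table, out of 369 known miRNAs with a goat name, and these 8 are all rows of any arm or letter. miR-203 and miR-205 have no row and were not analysed here.

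The cells came from the mammary gland of the Lanshan dairy goat and, per the design text, were grown in 3D culture. The 5 groups of 2 libraries were cells labelled Blank, cells with the virus Lv5NC, cells with virus for overexpression of the long noncoding RNA lncRNA55666 (OV55666), cells with the virus Lv3NC, and cells with virus for knockdown of lncRNA55666 (KD553). Lv5NC was taken as the control of OV55666 and Lv3NC as that of KD553, after the order in which the design text names them. The labels do not say whether the libraries of a group came from separate goats or cultures, so p-values measure only the spread between these libraries, which may be technical. The labels give no age of the animals and name no sorting of the cells, and the species is labelled Capra aegagrus. A small RNA table does not measure lncRNA55666 itself, so the size of its overexpression and knockdown was not analysed here.

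The miR-200 family is transcribed from a locus that carries miR-200b, miR-200a and miR-429 and from another that carries miR-200c and miR-141. Its members fall into a pair of seed groups, miR-200b with miR-200c and miR-429, and miR-200a with miR-141, whose target sets overlap only in part. In human and mouse cells the family represses ZEB1 and ZEB2, the factors that switch off epithelial genes such as the one for E-cadherin, and ZEB1 and ZEB2 repress both loci in return. The miR-183, miR-96 and miR-182 precursors lie in a single cluster, first studied in sensory cells and also found in epithelia and in breast tumours. miR-203 and miR-205 are known from stratified and basal epithelia, among them the basal layer of the mammary gland.

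The libraries held 19174206 to 25445687 reads in the table, and 3108495 to 8739602 of these lay on known or predicted miRNAs. Levels are given as counts-per-million of the miRNA reads after TMM scaling (CPM), so that 1 CPM stood for 3.54 to 9.56 reads. CPM has no length term, and mature miRNAs are of nearly equal length. The library KD553 replicate 2 stood apart from the others. RF identifiers, given no names in the table, held 26.3% of its reads, against 4.81% to 16.2% in the other 9, and its blood cell miRNAs summed to 1847 CPM, against 198 to 1134 CPM. Results that rest on this library are therefore given with values without it or with its part of the reads.

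All 8 miRNAs were scarce. Together they held 1012 of the 48686443 reads on known miRNAs, from 41 reads in Lv5NC replicate 1 to 292 reads in KD553 replicate 2. Their share of the miRNA reads of a library ran from 0.000846% in KD553 replicate 1 to 0.00737% in KD553 replicate 2. Ranked by mean level among the 369 known miRNAs, miR-200c came 191st and miR-141 297th, with miR-200b (rank 211), miR-429 (rank 218), miR-200a (rank 240), miR-183 (rank 254), miR-182 (rank 255) and miR-96 (rank 262) between them. The median listed known miRNA of a library had 19.7 to 34.0 CPM. No member reached that median in 9 of the 10 libraries, and in KD553 replicate 2 only miR-200c did, at 29.2 CPM against a median of 26.2 CPM.

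**Figure D1:**
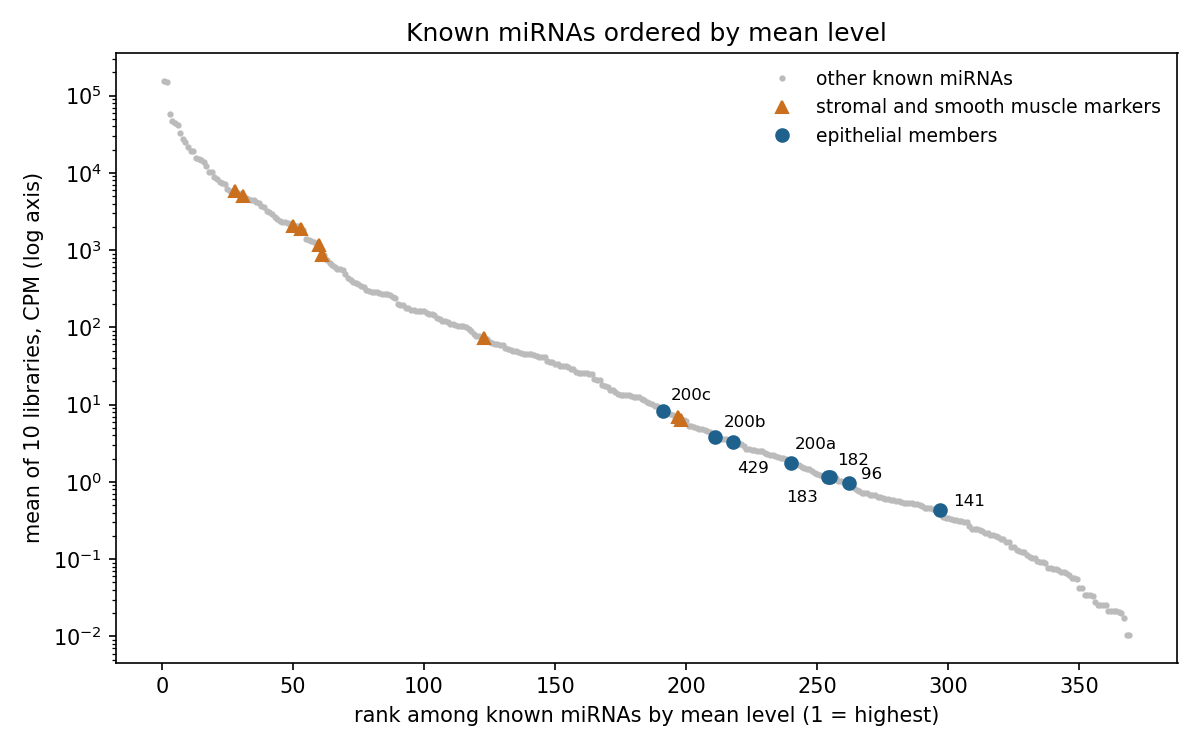
Mean level over 10 libraries in CPM (log axis) of the known miRNAs, ordered from the highest; blue circles are the 8 members, orange triangles the stromal and smooth muscle markers and grey points the other known miRNAs. The members lie between rank 191 and rank 297, and the stromal row miR-214-3p lies at 5768 CPM.

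Low counts and missing marks were checked against the totals that the deposited TPM values imply. Of the 80 cells of the 8 rows, 5 hold a missing mark, for miR-141 in Blank replicate 2, Lv5NC replicate 1 and KD553 replicate 1, and for miR-183 in Lv5NC replicate 1 and KD553 replicate 1. In both KD553 libraries the total equalled the sum of the listed reads, and in OV55666 replicate 1 it exceeded it by 1 read, so in these 3 libraries the table accounts for the whole total. The missing marks of KD553 replicate 1 were read as 0 reads, and a count of 0 there allows up to 0.608 CPM (3 reads). In Blank, Lv5NC and OV55666 replicate 2 the total exceeded the listed reads by 15214 to 59484 reads, or 2635 to 7144 CPM, and the table does not say which RNAs these are. The levels of the members in those 5 libraries are therefore levels of the listed reads. For Lv3NC no such total could be assigned.

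miR-200c (chi-miR-200c in the table) was the most abundant of the 8, with the highest count of them in 8 of 10 libraries. Its reads numbered 31 and 33 in Blank, 14 and 22 in Lv5NC, 3 and 59 in OV55666, 75 and 34 in Lv3NC, and 11 and 115 in KD553. These are levels of 5.37 and 3.45 CPM in Blank, 3.95 and 3.61 CPM in Lv5NC, 0.509 and 12.6 CPM in OV55666, 15.8 and 6.85 CPM in Lv3NC, and 2.23 and 29.2 CPM in KD553. Blank and Lv5NC were uniform, whereas OV55666 and KD553 each held a low and a high library. The lowest and the highest OV55666 values differed 24.7-fold and those of KD553 13.1-fold, and in OV55666, Lv3NC and KD553 the 95% Poisson intervals of the replicates did not overlap. Reads that share a PCR template are not separate molecules, so such intervals and floors hold counting error alone.

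miR-200b (chi-miR-200b) was steadier. Its reads numbered 25 and 16 in Blank, 12 and 8 in Lv5NC, 34 and 20 in OV55666, 17 and 7 in Lv3NC, and 13 and 38 in KD553. The corresponding levels were 4.33 and 1.67 CPM, 3.39 and 1.31 CPM, 5.77 and 4.27 CPM, 3.59 and 1.41 CPM, and 2.63 and 9.65 CPM. The OV55666 libraries both lay above the Lv5NC libraries, and the KD553 and Lv3NC libraries overlapped. The Poisson intervals of the replicates were apart in Blank and KD553.

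miR-429, which shares its seed with miR-200b and miR-200c, had 72 of its 155 reads (46.5%) in KD553 replicate 2. The reads were 6 and 22 in Blank, 7 and 6 in Lv5NC, 9 and 18 in OV55666, 7 and 1 in Lv3NC, and 7 and 72 in KD553. KD553 replicate 2 was thus at 18.3 CPM and the other 9 libraries at 0.201 to 3.84 CPM. miR-200a, of the other seed group, had 3 and 2 reads in Blank, 1 and 6 in Lv5NC, 5 and 8 in OV55666, 13 and 3 in Lv3NC, and 3 and 35 in KD553. It too was highest in KD553 replicate 2, at 8.89 CPM against 0.209 to 2.75 CPM elsewhere. miR-141 had 0 to 7 reads in every library, 20 in all, with its 7 reads in KD553 replicate 2.

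**Figure D2:**
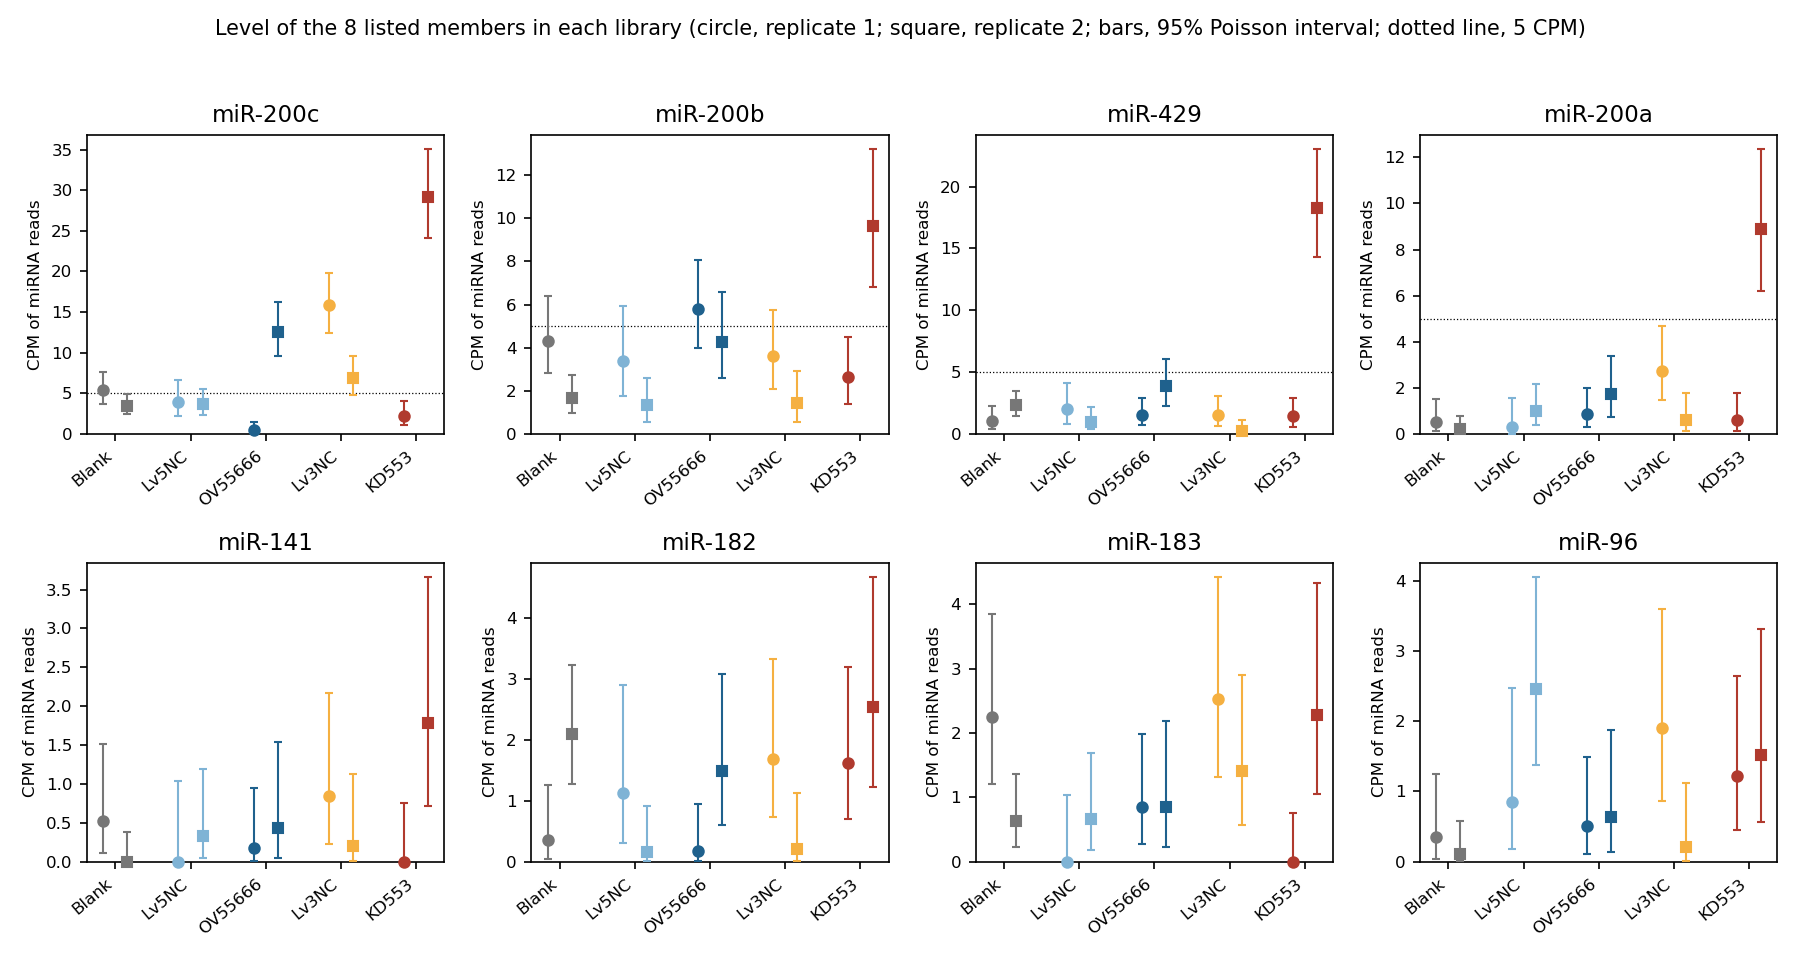
Level in CPM of each of the 8 miRNAs in the 10 libraries (linear axes that differ between panels); circles are replicate 1, squares replicate 2, bars the 95% Poisson interval of the reads, and the dotted line marks 5 CPM where it is in range. KD553 replicate 2 is the highest library for the 5 miR-200 family members, from 1.78 CPM for miR-141 to 29.2 CPM for miR-200c.

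The miR-183 cluster summed to less than the miR-200 family in every library, though each of its members averaged above miR-141. The cluster had no such peak. miR-183 had 13 and 6 reads in Blank, 0 and 4 in Lv5NC, 5 and 4 in OV55666, 12 and 7 in Lv3NC, and 0 and 9 in KD553. miR-96 had 2 and 1, 3 and 15, 3 and 3, 9 and 1, and 6 and 6 reads in the same order of groups. miR-182 had 2 and 20, 4 and 1, 1 and 7, 8 and 1, and 8 and 10 reads. The cluster summed to 1.53 to 6.35 CPM, and KD553 replicate 2 (6.35 CPM) lay close to Lv3NC replicate 1 (6.12 CPM). Which member led the cluster changed between replicates: miR-182 held 11.8% of its reads in Blank replicate 1 (2 of 17, exact binomial 95% interval 1.46% to 36.4%) and 74.1% in Blank replicate 2 (20 of 27, interval 53.7% to 88.9%).

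By mean over the 10 libraries the levels ran from miR-200c (8.36 ± 8.72 CPM, SD, n = 10) and miR-200b (3.80 ± 2.51 CPM) over miR-429 (3.31 ± 5.35 CPM) and miR-200a (1.74 ± 2.62 CPM) to miR-183 (1.15 ± 0.932 CPM), miR-182 (1.14 ± 0.877 CPM), miR-96 (0.975 ± 0.784 CPM) and miR-141 (0.427 ± 0.546 CPM). Each neighbour in this order differed from the next by less than the larger of both SDs. miR-200c exceeded miR-200b in 8 libraries and miR-200b exceeded miR-429 in 8, whereas miR-183 and miR-182 were ahead of each other in 5 libraries each. Without KD553 replicate 2 the means of miR-200c, miR-200b and miR-429 were 6.04, 3.15 and 1.64 CPM. miR-183 (1.02 CPM) and miR-182 (0.990 CPM) then came before miR-200a (0.945 CPM), followed by miR-96 (0.914 CPM) and miR-141 (0.277 CPM). Over the 40 replicate pairs of the 8 miRNAs, the Poisson intervals overlapped in 31 and were apart in 9, among them 3 of the 5 pairs of miR-200c.

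Over the pooled reads of all libraries, the loci of the family contributed about equally. miR-200c with miR-141 held 417 of the 841 reads of the family (49.6%, exact binomial 95% interval 46.2% to 53.0%). KD553 replicate 2 supplied 267 of the 841. Intervals of reads pooled over libraries, here and in the next paragraph, hold counting error only and not the spread between libraries. OV55666 replicate 1 departed from the pooled share, with 4 of 52 reads from the locus of miR-200c and miR-141 (7.69%, interval 2.14% to 18.5%), against 32.4% to 76.1% in the other 9 libraries. In that library miR-200c stood at 3 reads and miR-200b at 34, while OV55666 replicate 2 had 59 and 20. miR-222-3p, the known miRNA with the highest mean level, was also lowest in OV55666 replicate 1, at 39928 CPM against 41995 to 284832 CPM elsewhere, and its part in the low miR-200c value was not tested. Lv3NC had the highest shares of the miR-200c locus, 68.1% and 76.1%.

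The members of a locus were present in unequal amounts. miR-141 held 4.80% of the reads of its locus (20 of 417, interval 2.95% to 7.31%), the rest being miR-200c. In the other locus miR-200b held 44.8%, miR-429 36.6% and miR-200a 18.6% of 424 reads. KD553 replicate 2 gave 145 of these reads, 38 of miR-200b, 72 of miR-429 and 35 of miR-200a. The order changed between libraries. miR-429 exceeded miR-200b in Blank replicate 2, at 55% and 40% of 40 reads, and miR-200a exceeded miR-429 in both Lv3NC libraries, at 35.1% and 18.9% of 37 reads and at 27.3% and 9.09% of 11 reads. KD553 replicate 2 also had miR-429 ahead, at 49.7% (72 of 145, interval 41.3% to 58.1%) and miR-200b at 26.2% (38 of 145, interval 19.3% to 34.2%), while in KD553 replicate 1 miR-429 held 30.4% (7 of 23) and miR-200b 56.5% (13 of 23). By seed, miR-200a with miR-141 held 11.8% of the family reads (99 of 841, interval 9.67% to 14.1%), and the range over libraries was 2.74% to 18.2%. KD553 replicate 2 gave 42 of the 99 and 267 of the 841 reads, a share of 15.7% in that library. Read shares of different miRNAs also carry the cloning efficiency of each sequence, which was not measured.

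**Figure D3:**
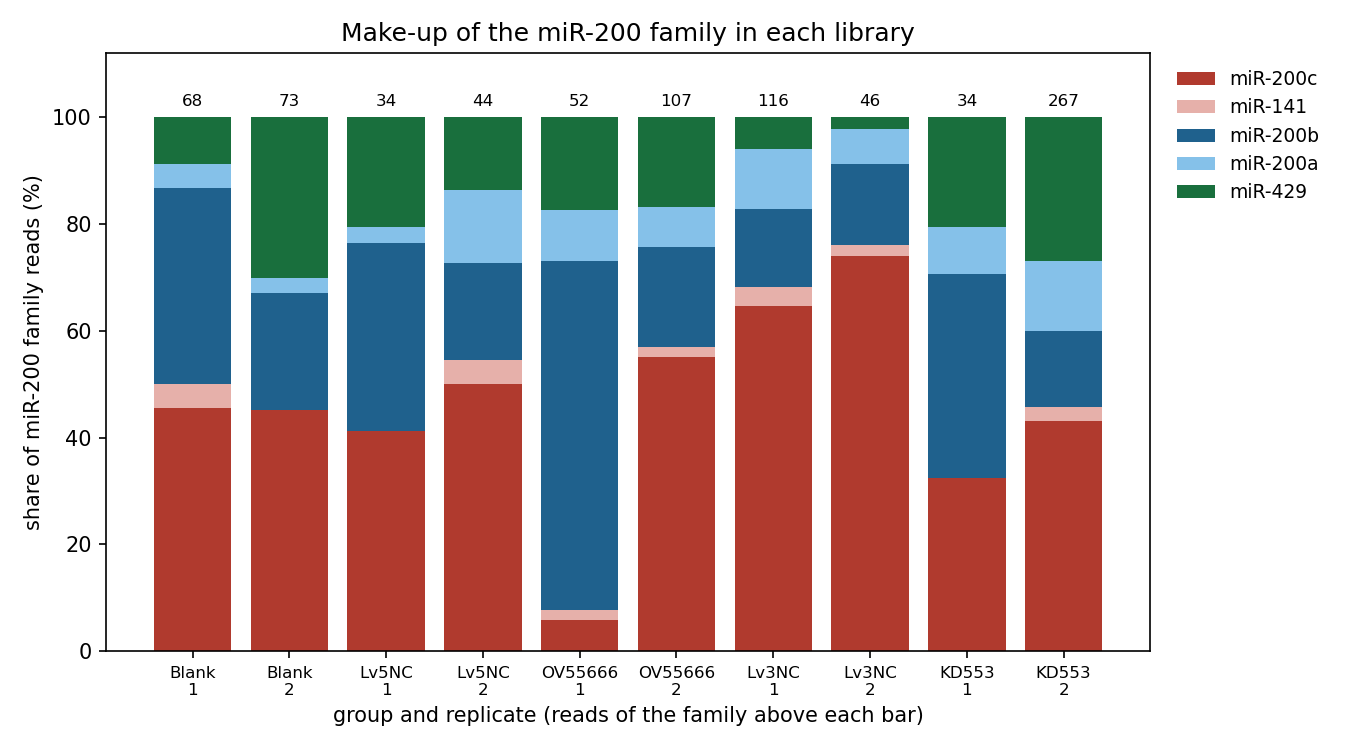
Share in percent of the reads of the miR-200 family held by each member, for each library, with the number of family reads above the bar. miR-200c holds 5.77% in OV55666 replicate 1 and 32.4% to 73.9% in the other 9 libraries.

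Of the 8 miRNAs only miR-200c and miR-200b reached 5 CPM in at least 2 of the 10 libraries, the level required for testing, against 223 of all 369 known miRNAs (60.4%). miR-200c did so in 5 libraries and miR-200b in 2, OV55666 replicate 1 and KD553 replicate 2. Groups were compared with limma on log2(CPM + 1) over 444 miRNAs, with Benjamini-Hochberg adjustment over all of them, and log2 fold changes on this scale understate changes of miRNAs near 1 CPM.

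The first comparison set cells with the lncRNA55666 overexpression virus (OV55666) against cells with the control virus Lv5NC. Neither tested member was called, beside 0.225% of all tested miRNAs (1 of 444) at an adjusted p under 0.05 and 8.78% (39 of 444) at an unadjusted p under 0.05, with neither member among these. miR-200c stood at 3.78 ± 0.239 CPM (SD, n = 2) in Lv5NC and 6.55 ± 8.54 CPM in OV55666, with a log2 fold change of -0.08 (95% interval -2.89 to 2.74, limma adjusted p = 0.988). Leaving out OV55666 replicate 1 gave 1.51 and leaving out OV55666 replicate 2 gave -1.66, so its sign rested on which OV55666 library was kept. miR-200b stood at 2.35 ± 1.47 and 5.02 ± 1.07 CPM, a log2 fold change of 0.91 (interval -1.11 to 2.92, limma adjusted p = 0.817).

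Both OV55666 libraries exceeded both Lv5NC libraries for miR-200b and miR-183, 2 of the 8 members, beside 17.1% of the known miRNAs that were apart in this direction. For miR-183 the OV55666 libraries had 5 and 4 reads (0.849 and 0.853 CPM). Lv5NC had a missing mark in replicate 1 and 4 reads (0.657 CPM) in replicate 2, and the Poisson intervals of miR-183 overlapped between the groups. miR-96 was the 1 member apart downward, beside 15.7% of the known miRNAs. Both OV55666 libraries (0.509 and 0.640 CPM) and Lv5NC replicate 1 (0.846 CPM) had 3 reads of miR-96, so only the scaling set these libraries apart. Pooled over replicates and scaled by library, miR-200b had 54 reads in OV55666 and 20 in Lv5NC, a ratio of 2.46 (exact 95% interval 1.45 to 4.34, counting error only). miR-96 had 6 and 18 reads, a ratio of 0.304 (interval 0.0987 to 0.798), and 15 of the 18 came from Lv5NC replicate 2.

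The knockdown cells were set against Lv3NC in the same way. Neither member was called, beside 0% of all tested miRNAs (0 of 444), where 40 had an unadjusted p under 0.05 (9.01%, neither member) and 0 were called with voom weights. Without KD553 replicate 1, limma called 14. The level of miR-200c was 11.3 ± 6.36 CPM with the control virus and 15.7 ± 19.1 CPM under knockdown (log2 fold change of -0.22, interval -3.03 to 2.59, limma adjusted p = 0.975). The mean was higher in KD553 while the change fitted on the log scale was negative: KD553 replicate 1 lay below both Lv3NC libraries and KD553 replicate 2 above both. The fitted change became -1.83 when KD553 replicate 2 was left out and 1.39 when KD553 replicate 1 was. miR-200b stood at 2.50 ± 1.54 and 6.14 ± 4.96 CPM (0.90, interval -1.11 to 2.92, limma adjusted p = 0.708), and the change was 1.68 without KD553 replicate 1 and 0.44 without Lv3NC replicate 2. Without KD553 replicate 2 it no longer passed the filter.

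For none of the 8 members were the KD553 and Lv3NC libraries apart, beside 17.3% of the known miRNAs apart upward and 12.5% downward. miR-429 had the largest ratio of pooled reads among the members, 79 in KD553 and 8 in Lv3NC (10.8, interval 5.22 to 25.9, counting error only), and 72 of the 79 came from replicate 2. With 7 reads each, KD553 replicate 1 (1.42 CPM) and Lv3NC replicate 1 (1.48 CPM) were alike. The untested miR-200a (38 and 16 reads), miR-182 (18 and 9), miR-96 (12 and 10) and miR-141 (7 and 5) had pooled ratios of 2.60, 2.19, 1.31 and 1.53, and miR-183 (9 and 19) of 0.518. KD553 replicate 2 held 35 of the 38 miR-200a reads and all KD553 reads of miR-141 and miR-183. In KD553 replicate 1 miR-200a stood at 0.608 CPM, against 2.75 and 0.604 CPM in Lv3NC. The KD553 reads of miR-182 (8 and 10) and miR-96 (6 and 6) were split between its replicates.

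The control viruses were each set against Blank. For Lv5NC limma called 0% of all tested miRNAs (0 of 444, with 30 or 6.76% at an unadjusted p under 0.05 and 0 with voom weights), neither member among them. miR-200c moved from 4.41 ± 1.36 to 3.78 ± 0.239 CPM (-0.16, interval -2.97 to 2.66, limma adjusted p = 0.974) and miR-200b from 3.00 ± 1.88 to 2.35 ± 1.47 CPM (-0.24, interval -2.26 to 1.77, limma adjusted p = 0.932). The values of Lv5NC also enter the overexpression comparison. miR-96 was the only member apart, beside 12.5% of the known miRNAs apart upward, and no member was apart downward, beside 26.6% of the known miRNAs. Its pooled reads were 18 in Lv5NC and 3 in Blank (ratio 9.55, interval 2.79 to 50.6, counting error only). Of the 18 reads, 15 came from Lv5NC replicate 2. Lv5NC replicate 1 had 3 reads of miR-96 (0.846 CPM) against 2 and 1 in Blank (0.346 and 0.105 CPM), with overlapping Poisson intervals.

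For Lv3NC limma called 0.225% of all tested miRNAs (1 of 444, and 22 or 4.95% at an unadjusted p under 0.05), with neither member in either count. miR-200c stood at 4.41 ± 1.36 CPM in Blank and 11.3 ± 6.36 CPM in Lv3NC (1.11, interval -1.70 to 3.92, limma adjusted p = 0.898), and miR-200b at 3.00 ± 1.88 and 2.50 ± 1.54 CPM (-0.18, interval -2.20 to 1.83, limma adjusted p = 0.967). miR-200c and miR-200a were the 2 of 8 members apart upward, beside 11.4% of the known miRNAs, and no member was apart downward, beside 20.3%. For miR-200a, Lv3NC replicate 2 (0.604 CPM) and Blank replicate 1 (0.520 CPM) had 3 reads each, so only the scaling set them apart. The pooled ratio of miR-200c was 2.69 (109 and 64 reads, interval 1.96 to 3.73, counting error only) and that of miR-200a 5.06 (16 and 5 reads, interval 1.77 to 17.7). Of the 16 miR-200a reads, 13 came from Lv3NC replicate 1. The overexpression effect minus the knockdown effect was 0.14 for miR-200c (interval -3.84 to 4.12, limma adjusted p = 0.991) and 0.00 for miR-200b (interval -2.85 to 2.85, limma adjusted p = 0.998), where limma called 0.225% of all tested miRNAs (1 of 444, and 26 or 5.86% at an unadjusted p under 0.05, neither member).

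Each interval of miR-200c extends beyond a log2 change of 2 upward, downward or both. Changes of that size in such a direction were therefore not excluded with 2 libraries a group at these counts.

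The scarcity of these miRNAs was set beside markers of other cells. Of the stromal and smooth muscle list (miR-143, miR-145, miR-199a, miR-199b and miR-214, 9 rows, none at 0 in every library), miR-214-3p averaged 5768 ± 1479 CPM (SD, n = 10), miR-143-3p 5009 ± 2786 CPM and miR-145-5p 2066 ± 880 CPM. The lowest rows, miR-199b-5p (6.97 CPM) and miR-145-3p (6.37 CPM), averaged less than miR-200c (8.36 CPM). The list summed to 10234 to 23288 CPM, and its reads exceeded those of the 8 members 138-fold in KD553 replicate 2 and 526-fold to 2216-fold in the other 9 libraries (median over 10 libraries 1408-fold). This ratio within a library does not depend on the scaling. In such bulk libraries fewer epithelial cells and less of these miRNAs per cell cannot be told apart. The tissue label gives mammary gland and does not name a cell type.

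Other miRNAs linked to epithelia summed to more than the members, through 6 of their 14 rows. Of 11 such names, miR-31 and miR-375 have no row here, and the other 9 have 14 rows, of which 7 were tested. They summed to 162 to 395 CPM, 5.33 to 24.5 times the members' reads. miR-449a-5p, known from ciliated epithelia, averaged 61.0 ± 21.0 CPM, miR-192-5p, abundant in gut and kidney epithelium, 53.4 ± 43.6 CPM, and miR-34c-3p 45.0 ± 20.4 CPM. miR-148a-3p, a leading miRNA of milk, averaged 15.2 ± 5.99 CPM, above miR-200c. The other 8 rows averaged 0.034 to 2.94 CPM, below miR-200c, miR-200b and miR-429. Among miRNAs linked to the mesenchymal transition in human and mouse cells (miR-9, miR-10b, miR-21, miR-155, miR-221 and miR-222, 11 rows), miR-222-3p averaged 155746 ± 93382 CPM, miR-21-5p 19427 ± 17375 CPM and miR-221-3p 3609 ± 735 CPM. Its lowest rows, miR-21-3p, miR-9-3p, miR-155-3p and miR-10b-3p, averaged 3.59, 2.14, 0.503 and 0.0888 CPM, below miR-200c and miR-200b. limma called none of the tested rows of these lists in any of the 5 comparisons (9 stromal, 7 other epithelial and 8 mesenchymal rows at an adjusted p under 0.05). For overexpression, the log2 fold change was positive for 5 of the 7 other epithelial rows (median 0.35), 4 of the 9 stromal rows (median -0.00025) and 7 of the 8 mesenchymal rows (median 0.60), beside a median of -0.10 over all tested miRNAs and 0.12 over the 223 known ones. The Lv5NC libraries enter that comparison as controls, and against Blank they had a positive value for 1 of the 7 other epithelial rows (median -0.21), 4 of the 9 stromal rows (median -0.21) and 1 of the 8 mesenchymal rows (median -0.78). The median of Lv5NC against Blank was 0.14 over all tested miRNAs and -0.22 over the 223 known ones, near the epithelial and stromal medians. For knockdown the log2 fold change was positive for 3 of 7 (median -0.09), 5 of 9 (median 0.02) and 6 of 8 (median 0.31), beside -0.32 over all tested and 0.09 over the known miRNAs. Its control Lv3NC, set against Blank, had positive values for 3 of 7 (median -0.40), 1 of 9 (median -0.56) and 3 of 8 (median -0.30). The median of Lv3NC against Blank was -0.08 over all tested and -0.18 over the known miRNAs. Shares of positive values over all tested miRNAs are not given here. Striated muscle miRNAs were present as well, with miR-133a-3p at 192 ± 77.6 CPM and 81.8 to 383 CPM for the list of 5 rows. None of the tested striated muscle (3), blood (4) or endothelial (1) rows was called by limma in any comparison.

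**Figure D4:**
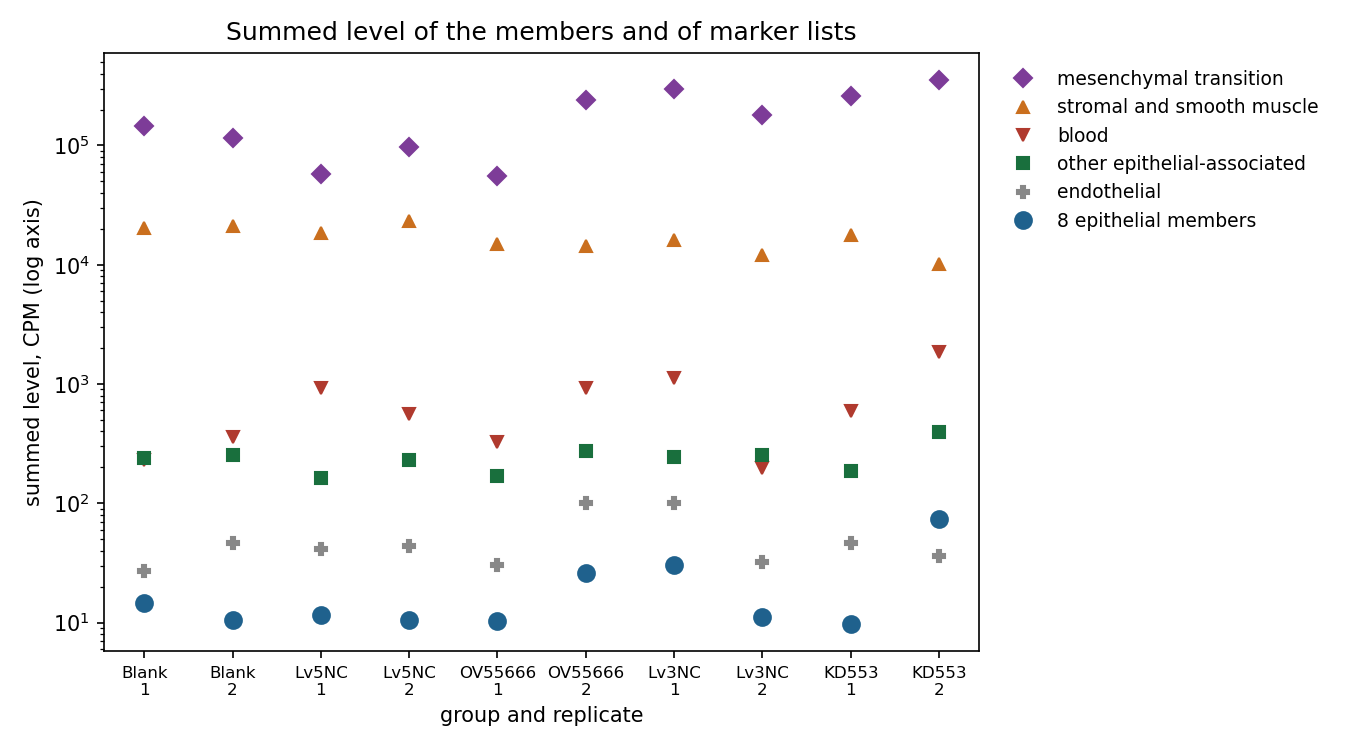
Summed level in CPM (log axis) of the 8 members and of 5 marker lists in each library. The members lie between 9.73 and 74.2 CPM, and the stromal and smooth muscle list between 10234 and 23288 CPM.

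KD553 replicate 2 combined the highest level of the members with other departures. The miR-200 family summed to 67.8 CPM there and to 6.89 to 24.5 CPM in the other 9 libraries. The other epithelial-associated list was highest in that library too (395 CPM against 162 to 273 CPM), as was the blood list of 6 rows (1847 CPM against 198 to 1134 CPM), in which miR-150 and miR-223-3p reached 646 and 885 CPM. The mesenchymal list was highest there as well (352836 CPM against 55434 to 296616 CPM). The stromal list was lowest there (10234 CPM against 12105 to 23288 CPM), and the endothelial miR-126 rows were at 36.3 CPM, within the 27.0 to 101 CPM of the others. The part of these features and of the RF share in the level of the members was not tested.

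Across the 10 libraries the miRNAs with the most similar pattern were taken from the 222 other tested known miRNAs by Pearson r of log2(CPM + 1), as a description. For miR-200b they were miR-150 (r = 0.82, Spearman rho = 0.72), miR-29c-3p (0.79, rho 0.63), miR-194 (0.79, rho 0.73), miR-223-3p (0.75, rho 0.59) and miR-192-5p (0.73, rho 0.67). For miR-200c they were miR-301a-3p (r = 0.83, rho 0.66), miR-92b (0.75, rho 0.76), miR-222-3p (0.73, rho 0.68), miR-150 (0.72, rho 0.55) and miR-15b-3p (0.72, rho 0.44). Without KD553 replicate 2 the 5 values of r fell to between 0.47 and 0.66 for miR-200b, while for miR-200c they lay between 0.48 and 0.78, with miR-92b the highest. The values share library depth and scaling, and the miRNAs were picked as the highest of many.

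Among the miR-200 family itself, r over the 10 pairs of members was 0.35 to 0.93 (median 0.71) with all libraries and -0.08 to 0.82 (median 0.29) without KD553 replicate 2. miR-200b and miR-200c, the most abundant members of either locus, had r = 0.35 with that library and -0.08 without it. The 3 pairs of the miR-183 cluster, which are made from a shared precursor region, had r from -0.02 to 0.15. Correlations at so few reads carry counting error and are given as values only.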

How the data were processed

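Small RNA libraries (10, in 5 groups of 2) were analysed from 1 deposited table of 2233 identifiers. Per the file headers, the authors deposited a read count and a TPM value per library, with no normalization of the counts. The deposited TPM is a count scaled to 1 total per library and is not divided by miRNA length. The deposited count cells hold a missing mark in 11323 of 22330 cells (50.7%), and these were read as 0. For the aligner, the miRNA database and the build, nothing was stated in these sources. The 2 TPM columns of Lv3NC carry the same header and were not used, and the other 8 gave library totals. Columns were matched to samples by title. The sample descriptions of both KD553 libraries name columns by other numbers than the titles and the table do, so which KD553 sample a column belongs to rests on the titles.

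Counts of 369 known and 1034 predicted miRNAs were scaled with TMM (trims of 30% and 5%, factors 0.796 to 1.16). miRNAs with 5 CPM in 2 libraries were fitted with limma 3.58.1 (R 4.3.3, abundance trend, robust moderation, a pseudocount of 1 CPM, 5 group means, two-sided). The fit was tested on simulated data. A count model was not run because of the missing marks in the count columns. Intervals are 95% exact Poisson or binomial intervals (scipy 1.17.1). The members, lists and rule for named miRNAs (all members, the 5 most similar miRNAs of each tested member, and up to 3 leading miRNAs of each marker list) were chosen with earlier results of these data known. Alternatives were other pseudocounts, filters and scalings, each library left out, a fit of the compared groups alone, a fit of known miRNAs alone, a replicate block and, added after seeing the data, voom weights and levels without KD553 replicate 2. No reference sequences were used here.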

Additional observations from a re-analysis of the deposited data

How the results depend on the processing

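The 10 log2 fold changes of miR-200c and miR-200b did not pass an adjusted p of 0.05 under any of 184 alternative values (smallest limma adjusted p 0.466), and 22 of these had the opposite sign. miR-200b fell under the filter without OV55666 replicate 1 or KD553 replicate 2, which gave it no value there, and neither member passed with scaling to all reads. In a fit of the compared groups alone, miR-200c passed for knockdown, Lv3NC against Blank and the difference, and miR-200b for the difference. With a pseudocount of 5 CPM miR-200c was 0.16 for overexpression and 0.000988 for knockdown, and the difference of the effects was -0.054 for miR-200b. That difference was -0.035 for miR-200c and -0.16 for miR-200b with median-of-ratios scaling, and -0.23 and -0.22 with the miRNA total without factors, and -0.13 for miR-200c with voom weights. With each library left out, miR-200c ranged from -1.66 to 1.51 for overexpression, from -1.83 to 1.39 for knockdown, from -0.41 to 0.10 for Lv5NC against Blank and from -1.47 to 1.75 for the difference, and miR-200b from -0.74 to 0.25 for Lv5NC against Blank, from -0.68 to 0.32 for Lv3NC against Blank and from -0.77 to 0.47 for the difference. The sign held for miR-200c for Lv3NC against Blank (0.56 to 1.66). For miR-200b it held for overexpression (0.45 to 1.37) and knockdown (0.44 to 1.68) among the fits in which miR-200b passed the filter. Those ranges hold no fit without OV55666 replicate 1 or KD553 replicate 2, the libraries where miR-200b was highest. They therefore cannot show whether its sign depends on these libraries. As levels, miR-200b in OV55666 replicate 2 (4.27 CPM) lay above both Lv5NC libraries (3.39 and 1.31 CPM). In KD553 replicate 1 (2.63 CPM) it lay between the Lv3NC libraries (3.59 and 1.41 CPM).

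Calls over all miRNAs, none of them a member, numbered 0 with voom weights for overexpression and for the difference in place of 1. For knockdown 1 was called in place of 0 with a pseudocount of 5 CPM, no filter, scaling to all reads or the replicate block. For Lv5NC against Blank 1 was called with scaling to all reads, and for Lv3NC against Blank 2 with a pseudocount of 5 CPM or no filter in place of 1. With a library left out the calls ranged from 1 to 3 for overexpression (3 without Lv5NC replicate 2, 2 without OV55666 replicate 1), 0 to 14 for knockdown (14 without KD553 replicate 1), 0 to 2 for Lv5NC against Blank (2 without Lv5NC replicate 2), 1 to 2 for Lv3NC against Blank (2 without Blank replicate 1) and 1 to 4 for the difference (4 without KD553 replicate 1). Same-numbered libraries of different groups had deviations that correlated at -0.03 to 0.30, over 0.1 in 8 of 10 pairs of groups. Since 2 pairs did not reach it and the labels name no shared batch, they were not treated as paired. The replicate block changed no call of a member. The summed members averaged 20.9 CPM, 15.0 CPM without KD553 replicate 2, and 4.69 CPM when scaled to all reads. The median stromal ratio of 1408 was between 928 and 1438 with a marker name or KD553 replicate 2 left out. Counts of 0 to 115 reads per library limit the precision of every level, and the cause of the changes between settings was not tested.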
